A study of Mus musculus with 9 samples.

Results

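Ccl17 and Ccl22 encode the chemokines that bind the receptor CCR4. They are described here as the rows of those names in a table of read counts, 2 genes of 55302 symbols, and both were among the 15417 genes with enough counts to be tested. The study sequenced RNA of dendritic cells that had been sorted from thymi of C57BL/6 mice aged 8 weeks, in 9 libraries. The libraries fall into 3 populations named CD301b (replicates 1, 3 and 4), SIRPa (replicates 1, 2 and 3) and XCR1 (replicates 1, 2 and 3). No treatment, transgene or mutation is named for any of them. The sources used here do not give the sort gates, nor whether SIRPa cells were sorted free of CD301b cells. The design speaks of 3 mice and does not say which libraries came from which mouse, so p-values reflect only how these libraries vary, which may be technical.

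CCR4 is displayed by developing T cells after positive selection, when they move from the cortex of the thymus into the medulla. Its ligands CCL17 and CCL22 are made by medullary antigen-presenting cells, dendritic cells among them, and draw CCR4-bearing thymocytes towards these cells. Outside the thymus both chemokines are known as products of dendritic cells and of macrophages exposed to interleukin-4, and they attract type 2 helper and regulatory T cells. XCR1 marks conventional type 1 dendritic cells, SIRPa (CD172a) marks conventional type 2 dendritic cells, and CD301b, the lectin encoded by Mgl2, is carried by some of the type 2 cells.

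Libraries held 20246092 to 25438864 counts. The 6 dendritic cell markers (Flt3, Zbtb46, Itgax, H2-Ab1, Cd74 and Dpp4) were all detected and summed to 23961 to 28096 CPM (counts scaled to library size) in CD301b, 17556 to 19171 CPM in SIRPa and 18111 to 22010.0 CPM in XCR1 libraries. The 8 markers of type 1 dendritic cells summed to 1572 to 1959, 1443 to 1698 and 7318 to 8844 CPM in CD301b, SIRPa and XCR1 libraries, of which Wdfy4 alone had means of 1423, 1007 and 4489.8 CPM. Xcr1 itself averaged 0.619, 9.61 and 766 CPM in CD301b, SIRPa and XCR1. The 8 markers of type 2 cells summed to 2312 to 2690, 1699 to 1851 and 38.8 to 51.4 CPM. Among them, Mgl2, the gene of CD301b, averaged 624, 23.2 and 1.82 CPM in CD301b, SIRPa and XCR1. Sirpa averaged 646, 774 and 12.5 CPM. The labels name thymocytes as the source and thymic dendritic cells as the cell type. The 12 thymocyte markers summed to 167 to 339 CPM in CD301b, 139 to 309.5 CPM in SIRPa and 84.5 to 469.6 CPM in XCR1 libraries, the highest being XCR1 replicate 3, and Ptcra was at 0 in the CD301b group. The 7 macrophage markers, all detected, summed to 1407 to 1631, 2309 to 2674 and 88.3 to 108 CPM in CD301b, SIRPa and XCR1 libraries. The 6 B cell markers summed to at most 28.3 CPM in any library, with Ms4a1 and Pax5 at 0 in the CD301b group and Cd79a at 0 in the XCR1 group. The 5 plasmacytoid dendritic cell markers, all detected, summed to 437 to 552, 289.5 to 333 and 90.9 to 97.9 CPM in CD301b, SIRPa and XCR1 libraries. These sums had the order of Ccl17 without overlap, but Tcf4 (means of 389, 203 and 43.5 CPM) made up most of them in CD301b and SIRPa. Siglech had that order of means too (40.9, 35.7 and 7.73 CPM). Bst2 (62.2, 74.0 and 42.8 CPM), Klk1 (0.0816, 1.75 and 0.257 CPM) and Cox6a2 (0.789, 2.28 and 0.276 CPM) were highest in SIRPa. Only Tcf4 of these markers passed between CD301b and SIRPa. The 7 thymic epithelium markers summed to 141 to 151, 209 to 224 and 421 to 509 CPM, mostly Ly75, which dendritic cells also express (127, 193 and 441 CPM), and Krt14 was at 0 in the XCR1 group. The part of these other cell types in the results for Ccl17 and Ccl22 was not tested.

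Both genes lie on the plus strand of chromosome 8 in the mouse build GRCm38 (mm10). Ccl22 (ENSMUSG00000031779.3) spans 94745590 to 94751699 with 2325 exonic bases in 4 blocks over 2 annotated transcripts. Ccl17 (ENSMUSG00000031780.2) spans 94810453 to 94812036 with 514 exonic bases in 3 blocks and 1 transcript. No other annotated gene overlaps their exons on either strand. The 58753 bases between them hold 2 annotated genes, the pseudogene Gnb1-ps3 and Cx3cl1, which encodes the ligand of the receptor CX3CR1. The sequence before each transcription start is shown because the 2 genes share a locus and yet had different patterns over the populations. Sequences are from RefSeq (GRCm38.p6), plus strand, and both genes matched an entry. The Ccl17 stretch is the 250 bases at chr8:94810203-94810452. The Ccl22 stretch is the 156 bases at chr8:94745434-94745589, which end before the first annotated transcript base. Capitals mark matches to the STAT motif TTCNNNGAA and to the STAT6 motif, which has the same TTC and GAA ends with 4 bases between them. Both were read on both strands.
Ccl17: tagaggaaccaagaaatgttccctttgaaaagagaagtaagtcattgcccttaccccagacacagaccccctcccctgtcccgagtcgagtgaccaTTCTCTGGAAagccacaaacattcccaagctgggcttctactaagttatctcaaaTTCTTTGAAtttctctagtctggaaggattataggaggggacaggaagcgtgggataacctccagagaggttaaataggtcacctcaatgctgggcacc
Ccl22: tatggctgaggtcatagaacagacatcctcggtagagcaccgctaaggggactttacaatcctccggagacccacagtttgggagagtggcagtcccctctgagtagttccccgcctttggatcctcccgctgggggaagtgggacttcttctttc

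The Ccl17 window held 1 match to the STAT6 motif, 154 to 145 bases before the start, and 1 match to TTCNNNGAA, 99 to 91 bases before it. The Ccl22 window, which for the search was the 250 bases before its RefSeq start, held no match to either. Of 32536 RefSeq promoter windows of 250 bases, 5.89% held the STAT6 motif and 7.04% held TTCNNNGAA. Neither window matched the NF-kB consensus (3.92% of windows), the AP-1 motif TGANTCA (6.73%), the IRF motif of GAAA, 2 bases and GAAA (2.98%), the ETS-IRF motif of GGAA, 2 bases and GAAA (2.31%) or TATAAA (12.3%). A match is a run of letters and does not show that a factor binds there.

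Ccl17 was graded over the populations, highest in CD301b, intermediate in SIRPa and lowest in XCR1 cells. It stood at 109.5, 131 and 116 CPM in CD301b replicates 1, 3 and 4, at 31.3, 31.8 and 39.7 CPM in SIRPa replicates 1, 2 and 3, and at 9.88, 16.5 and 11.9 CPM in XCR1 replicates 1, 2 and 3. No library of one population reached into the range of another. The group means were 119 ± 11.3, 34.3 ± 4.71 and 12.8 ± 3.41 CPM in CD301b, SIRPa and XCR1 (SD, n = 3 each). These levels rested on 2363 to 3136, 661 to 842 and 198 to 348 counts per library. In bulk libraries, fewer cells that make a transcript and less transcript per cell cannot be told apart.

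Ccl22 was abundant in all 3 populations and differed far less between them. It stood at 920.4, 873 and 914 CPM in CD301b replicates 1, 3 and 4, at 816, 867 and 831 CPM in SIRPa replicates 1, 2 and 3, and at 508, 672 and 577 CPM in XCR1 replicates 1, 2 and 3. The lowest CD301b library lay just above the highest SIRPa library, and all XCR1 libraries lay below both. The group means were 903 ± 25.4, 838 ± 26.2 and 586 ± 82.4 CPM in CD301b, SIRPa and XCR1 (SD, n = 3 each), from 10187 to 23108 counts per library.

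**Figure D1:**
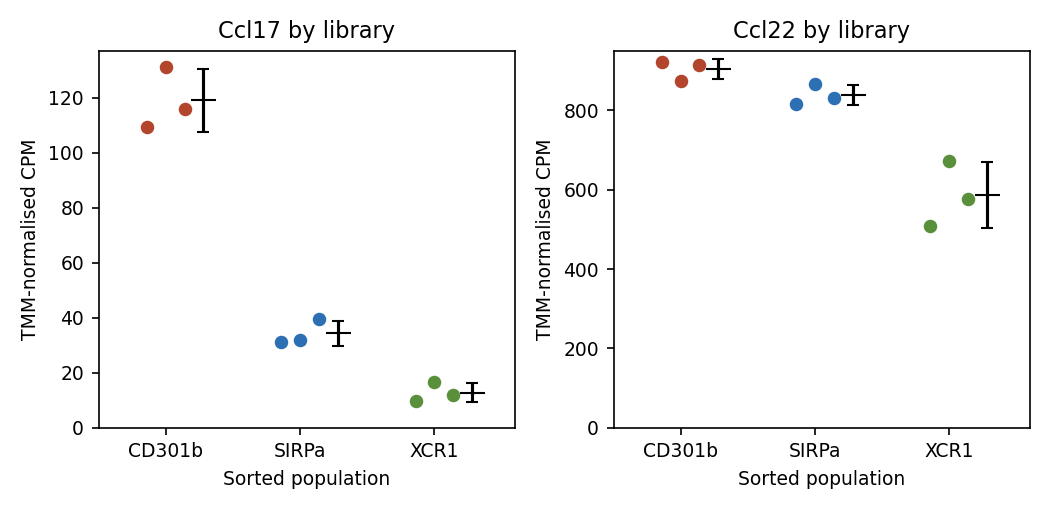
Ccl17 and Ccl22 in each library as CPM on TMM-scaled library sizes, with points for libraries and bars for the mean and SD of each population (n = 3). Ccl17 forms 3 separate steps at means of 119, 34.3 and 12.8 CPM in CD301b, SIRPa and XCR1, whereas Ccl22 runs from 873 to 920.4 CPM in CD301b, 816 to 867 CPM in SIRPa and 508 to 672 CPM in XCR1.

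Between CD301b and SIRPa cells, Ccl17 was 3.47-fold higher in CD301b (95% interval 2.68 to 4.49; log2 fold change 1.79 ± 0.18 SE, adjusted p = 2.84e-06). All p-values of this kind come from edgeR's quasi-likelihood test, adjusted by Benjamini-Hochberg over the 15417 genes, with a threshold of 0.05. Ccl22 did not pass in the same comparison, with a ratio of 1.08 (95% interval 0.933 to 1.24; log2 fold change 0.11 ± 0.10 SE, adjusted p = 0.754). The interval for Ccl22 leaves room for CD301b levels up to 1.24-fold those of SIRPa and lies wholly below that of Ccl17. Of all genes tested, 4.28% passed in this comparison and 2.20% were higher in CD301b. CD301b and SIRPa libraries did not overlap for either gene, and 10.7% of genes tested were higher in CD301b without overlap.

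Between CD301b and XCR1 cells both ligands were higher in CD301b, Ccl17 9.30-fold (7.06 to 12.2; log2 fold change 3.22 ± 0.19, adjusted p = 3.63e-11 by edgeR) and Ccl22 1.54-fold (1.33 to 1.78; log2 fold change 0.62 ± 0.10, adjusted p = 6.89e-05). In this comparison 22.6% of genes passed, 13.5% higher in CD301b, and 19.0% were higher in CD301b without overlap. Between SIRPa and XCR1 cells, Ccl17 was 2.68-fold higher in SIRPa (2.06 to 3.48; log2 fold change 1.42 ± 0.18, adjusted p = 3.88e-06 by edgeR) and Ccl22 1.43-fold higher (1.24 to 1.65; log2 fold change 0.52 ± 0.10, adjusted p = 4.92e-04). Here 24.7% of genes passed, 13.9% higher in SIRPa, and 22.1% were higher in SIRPa without overlap. The 3 comparisons share libraries, so they are not independent of each other.

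**Figure D2:**
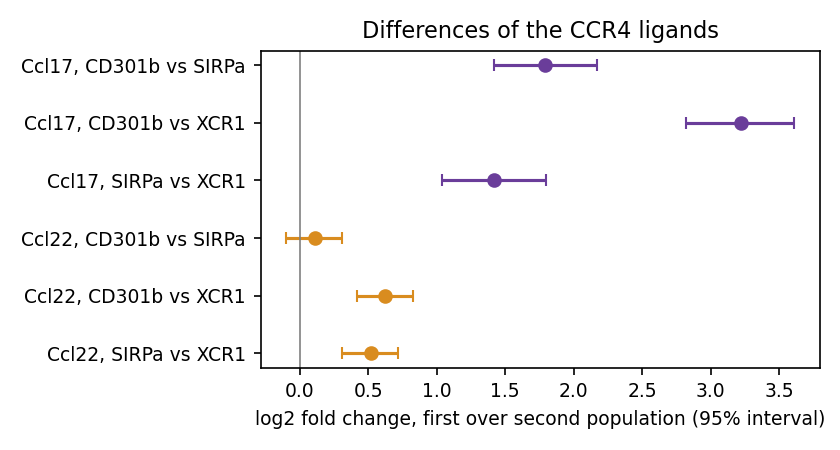
Log2 fold changes of Ccl17 and Ccl22 in the 3 comparisons of populations, with 95% intervals from edgeR's quasi-likelihood fit over 9 libraries. The Ccl17 values are 1.79, 3.22 and 1.42 and the Ccl22 values 0.11, 0.62 and 0.52 for CD301b over SIRPa, CD301b over XCR1 and SIRPa over XCR1.

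A CD301b, SIRPa, XCR1 order with no overlap between neighbours was found for 355 genes (2.30% of those tested), both ligands among them. For 95 genes (0.616%), Ccl17 among them, both steps of that order passed the test. Ccl22 passed only the step between SIRPa and XCR1. Among genes that passed as higher, with a mean of at least 5 CPM, the fold change of Ccl17 ranked 34 of 335 for CD301b over SIRPa, 273 of 1669 for CD301b over XCR1 and 703 of 1671 for SIRPa over XCR1. That of Ccl22 ranked 1330 of 1669 for CD301b over XCR1 and 1495 of 1671 for SIRPa over XCR1, so its differences were among the smaller ones that passed.

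The balance of the ligands was examined as a ratio within each library, where library scaling cancels. The log2 ratio of Ccl17 to Ccl22 counts was -3.07, -2.73 and -2.98 in CD301b replicates 1, 3 and 4, -4.70, -4.77 and -4.39 in SIRPa replicates 1, 2 and 3, and -5.69, -5.35 and -5.60 in XCR1 replicates 1, 2 and 3. The 3 populations formed separate ranges. The ratio differed over populations (exact permutation p = 0.00357 over 1680 assignments of libraries, the smallest value they can give). The means were -2.93 ± 0.18, -4.62 ± 0.20 and -5.54 ± 0.18 in CD301b, SIRPa and XCR1 (SD, n = 3 each). The CD301b mean exceeded the SIRPa mean by 1.69 and the XCR1 mean by 2.61, and the SIRPa mean exceeded the XCR1 mean by 0.92 on the log2 scale. Single pairs of populations were not tested, since an exact permutation test of 3 against 3 libraries cannot reach the threshold.

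Per length of exon, Ccl22 was the more abundant transcript in all 9 libraries. Ccl17 stood at 231 ± 22, 66.6 ± 9.16 and 24.9 ± 6.64 CPM per kb in CD301b, SIRPa and XCR1, and Ccl22 at 388 ± 10.9, 360.4 ± 11.3 and 252 ± 35.4 CPM per kb (SD, n = 3 each). The excess of Ccl22 over Ccl17 per kb was 1.69 ± 0.200-fold in CD301b, 5.47 ± 0.742-fold in SIRPa and 10.4 ± 1.23-fold in XCR1. Ccl17 thus made up 37.3 ± 2.86% of the pair's summed level per kb in CD301b, 15.6 ± 1.90% in SIRPa and 8.88 ± 1.01% in XCR1. These per-length levels use the union of annotated exons, and which transcripts were used was not measured.

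**Figure D3:**
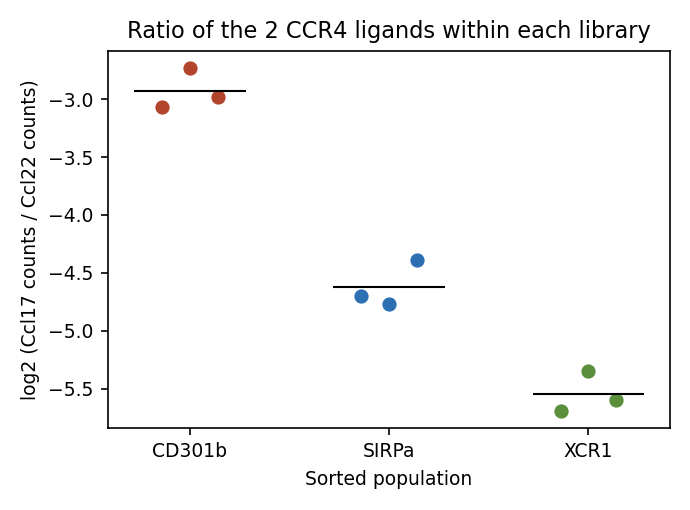
Log2 ratio of Ccl17 to Ccl22 counts in each library, with points for libraries and a line at the mean of each population (n = 3). The means step down at -2.93, -4.62 and -5.54 in CD301b, SIRPa and XCR1, with no overlap between populations.

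The spread between replicates was not alike for the 2 genes. The coefficient of variation of CPM was 9.53%, 13.7% and 26.7% for Ccl17 and 2.82%, 3.13% and 14.1% for Ccl22 in CD301b, SIRPa and XCR1. In XCR1 cells, replicate 2 was highest and replicate 1 lowest for both genes. In CD301b cells, replicate 3 had the highest Ccl17 and the lowest Ccl22. In SIRPa cells, replicate 3 had the highest Ccl17 and replicate 2 the highest Ccl22. XCR1 replicate 3, which had the most thymocyte marker RNA, lay between the other XCR1 libraries for both ligands.

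Both ligands were set among the 31 chemokine ligand genes examined, on the per-kb scale. In CD301b cells Ccl22 ranked first and Ccl17 second in every library, with 38.8% and 23.1% of the summed ligand level. In SIRPa cells Ccl22 ranked first with 34.2% and Ccl17 ranked 4 with 6.32%, behind Ccl5 at 25.5% and Cxcl16, the ligand of CXCR6, again in every library. In XCR1 cells Ccl5 had the highest mean with 35.5%, Ccl22 was second with 32.1% and Ccl17 ranked 5 with 3.17%. The order of Ccl5 and Ccl22 was not settled in XCR1 cells, since their levels of 278 ± 13.2 and 252 ± 35.4 CPM per kb lay within the replicate spread and Ccl22 ranked first in replicate 2. Among all 15230 genes with an annotated length, Ccl22 ranked 66, 65 and 123 per kb in CD301b, SIRPa and XCR1, and Ccl17 ranked 127, 474 and 1604.

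**Figure D4:**
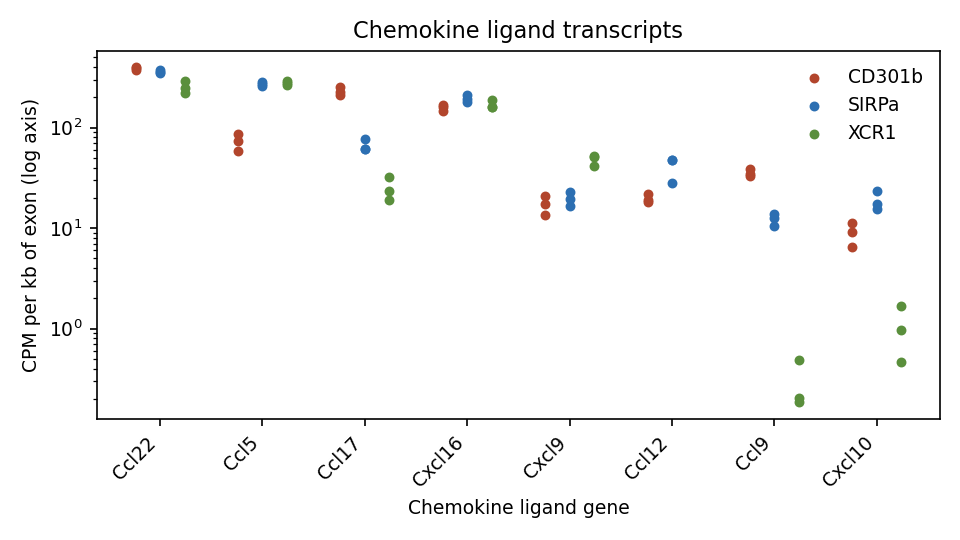
Levels of the 8 chemokine ligand genes with the highest population mean, in CPM per kb of exon on a log axis in CD301b, SIRPa and XCR1 cells, with a point for each library above 0 (XCR1 libraries have no Ccl12 counts). Ccl22 lies at the top of CD301b and SIRPa cells, whereas Ccl17 ranks 2 in CD301b, 4 in SIRPa and 5 in XCR1.

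Of the 29 other chemokine ligands, 21 were tested. Between CD301b and SIRPa, 1 was higher in CD301b (Ccl9), 2 were lower and 18 did not pass, against 2.20% of all genes higher and 2.08% lower. The lower ones were Ccl5, at 69.7 CPM in CD301b and 258 CPM in SIRPa (log2 fold change -1.89 ± 0.13, adjusted p = 1.22e-08 by edgeR), and Cx3cl1. The count of 2 was 1 without CD301b replicate 3 or 4 or any 1 of the 3 SIRPa libraries, and 4 without XCR1 replicate 2 or 3. With DESeq2 6 were lower and with limma-voom 5, Ccl1, Ccl12 and Cxcl10 being added by both tools and Cxcl16 by DESeq2 (adjusted p = 0.0227). Against XCR1, 11 were higher and 2 lower in CD301b, and 13 higher and 1 lower in SIRPa. Of all genes, 13.5% were higher and 9.12% lower in CD301b, and 13.9% and 10.7% in SIRPa. With 1 library left out, the counts higher were 8 to 11 in CD301b and 10 to 13 in SIRPa. With limma-voom they were 10 and 11. Ccl12, a ligand of CCR2, had 734 counts in CD301b and 1436 in SIRPa and 0 in every XCR1 library. Some others of the genes called higher, Ccl1 among them, likewise had no XCR1 counts. Such genes were tested only through the groups where they were high. Cxcl9, a ligand of CXCR3, went the other way, at 52.2 CPM in CD301b and 145 CPM in XCR1 (adjusted p = 5.66e-07 by edgeR). Cxcl16 did not pass edgeR's test in any of the 3 comparisons, at 479.7, 587 and 510.2 CPM in CD301b, SIRPa and XCR1.

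The other genes of the CCR4 pathway were the receptor Ccr4, the atypical receptors Ackr1 and Ackr2, which bind these chemokines without the usual signalling, and Dpp4, a peptidase that trims chemokines including CCL22. Of the list of 6 that includes the ligands, 5 were tested. Ccl17 alone was higher in CD301b than SIRPa, where 2.20% of all genes were higher and 2.08% lower. Ccl17, Ccl22 and Dpp4 were higher in both comparisons with XCR1. Of all genes, 13.5% were higher and 9.12% lower in CD301b than XCR1, and 13.9% and 10.7% in SIRPa than XCR1. None of the list was lower, and apart from the ligands only Dpp4 passed. The median log2 fold changes of the list were 0.11, 0.62 and 0.59 for CD301b over SIRPa, CD301b over XCR1 and SIRPa over XCR1, beside 0.01, 0.05 and 0.06 over all genes. The list includes the ligands, and 0.11 and 0.62 are the values of Ccl22 itself, whereas 0.59 is that of Dpp4. Medians of 5 genes that include the ligands cannot show whether the other genes shifted. Ccr4 was near the bottom of the range, at 1.27 to 7.63 CPM over the 9 libraries with means of 2.16, 3.69 and 2.96 CPM in CD301b, SIRPa and XCR1, and passed no comparison. Dpp4 averaged 206 ± 17.5, 209.8 ± 17.6 and 139.7 ± 12 CPM, and was 1.47-fold higher in CD301b than XCR1 (adjusted p = 7.43e-04 by edgeR) and 1.5-fold higher in SIRPa than XCR1 (adjusted p = 4.22e-04). Ackr1 summed to 173, 81 and 14 counts in CD301b, SIRPa and XCR1 and passed no comparison with edgeR. For CD301b over XCR1 it passed with DESeq2 (adjusted p = 0.0233) and limma-voom (0.0303). Without XCR1 replicate 3, which held all 14 of the XCR1 counts, it passed with edgeR for CD301b over XCR1 (adjusted p = 0.00297) and SIRPa over XCR1 (0.00604). Of the 1405 exonic bases of Ackr1, 361 are shared on the same strand with Cadm3. Cadm3 itself passed as higher in CD301b than SIRPa and in SIRPa than XCR1, and its part in the Ackr1 counts was not tested. Ackr2 had 10 counts, all in SIRPa replicate 1, and was not tested.

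Of the 13 genes examined from Nlrc5 to Dok4, ligands included, 12 were tested and Pllp was not. Between CD301b and SIRPa, Cpne2, which encodes a calcium-binding copine, and Ccl17 were higher in CD301b, Cx3cl1 was lower and 9 did not pass, where 2.20% of all genes tested were higher and 2.08% lower. Between CD301b and XCR1 the 2 ligands were the only ones of these 12 higher, and Cpne2 and Nlrc5, a regulator of MHC class I genes, were lower, where 13.5% of all genes were higher and 9.12% lower. Between SIRPa and XCR1 the ligands and Cx3cl1 were higher and the same 2 genes, Cpne2 and Nlrc5, lower, where 13.9% of all genes were higher and 10.7% lower. Cx3cl1, which lies between the ligands, stood at 15.1, 9.31 and 11.5 CPM in CD301b, 24.3, 27.1 and 27.6 CPM in SIRPa and 11.2, 20.1 and 8.01 CPM in XCR1 libraries. It was thus highest in SIRPa, unlike Ccl17 and Ccl22. Its log2 fold change was -1.14 ± 0.30 for CD301b over SIRPa (adjusted p = 0.0321 by edgeR) and 1.0 ± 0.30 for SIRPa over XCR1 (0.0165). The first call was lost without CD301b replicate 3 or 4 or any SIRPa library (0.0714 to 0.152) and the second without SIRPa replicate 2 or 3 or XCR1 replicate 1 or 3 (0.0544 to 0.0817). Cpne2 averaged 78.5, 44.8 and 131 CPM in CD301b, SIRPa and XCR1, an order unlike that of either ligand. Nlrc5 averaged 200.4, 202 and 265 CPM, and its calls against XCR1 were lost when replicates were left out. For CD301b these were CD301b replicate 1 or 3 or XCR1 replicate 1 or 2 (adjusted p 0.0513 to 0.113), and for SIRPa they were SIRPa replicate 2 or 3 or XCR1 replicate 1 or 2 (0.0576 to 0.127).

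**Figure D5:**
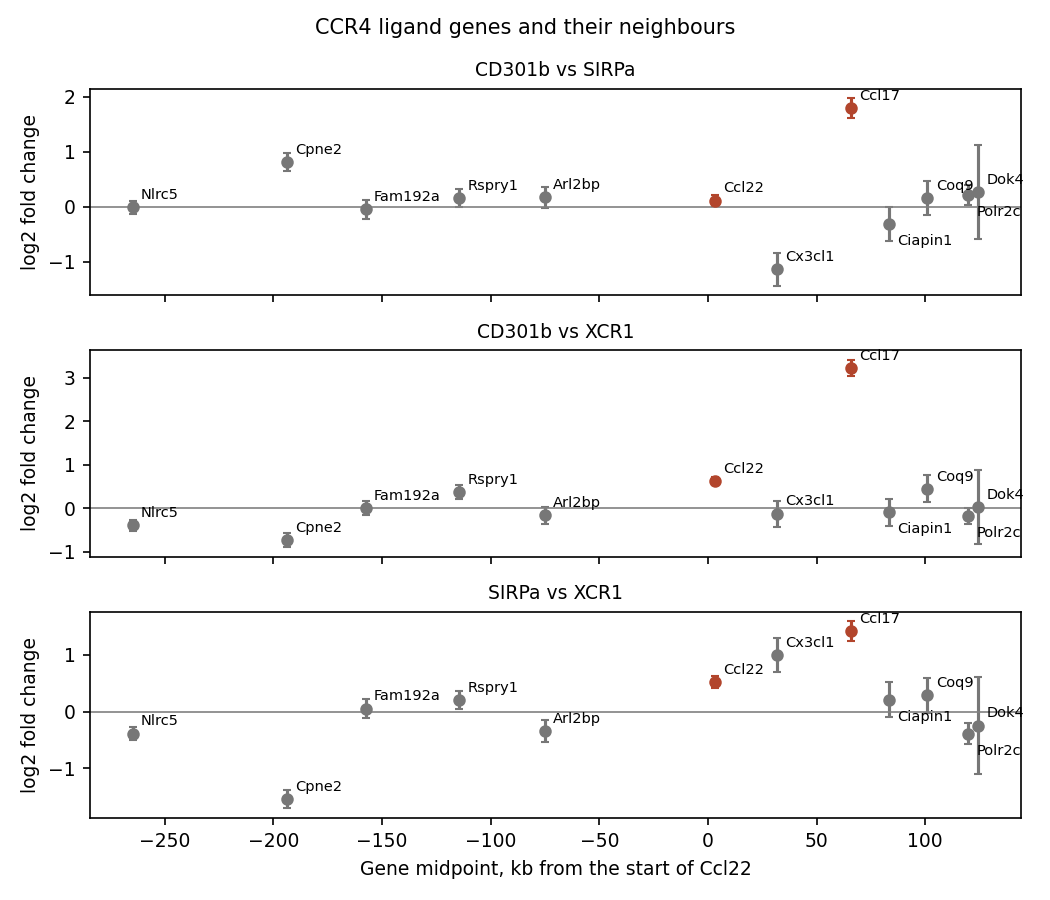
Log2 fold changes of the tested genes of the Ccl22 to Ccl17 locus against distance from the Ccl22 start in kb, in the 3 comparisons of populations (first over second), with bars of 1 SE from edgeR's fit, ligands in red and a vertical scale of its own in each panel. Ccl17 has values of 1.79, 3.22 and 1.42 and Ccl22 of 0.11, 0.62 and 0.52 for CD301b over SIRPa, CD301b over XCR1 and SIRPa over XCR1, whereas Cx3cl1 between them has -1.14 for CD301b over SIRPa and 1.0 for SIRPa over XCR1.

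Interleukin-4 and interleukin-13 induce both ligands in dendritic cells and macrophages through the receptor chains IL4RA and IL13RA1 and the factor STAT6. Of 11 genes of this signalling chain, all tested, 2 were higher in CD301b than SIRPa, 1 was lower and 8 did not pass, beside 2.20% of all genes higher and 2.08% lower. The higher ones were Il13ra1, at 188 ± 27.8 CPM in CD301b and 87.6 ± 4.54 CPM in SIRPa (log2 fold change 1.10 ± 0.13, adjusted p = 1.90e-05 by edgeR), and the kinase gene Jak2 (0.37 ± 0.09, adjusted p = 0.0206). Il4ra was the lower one, at 90.8 CPM in CD301b and 138 CPM in SIRPa (-0.60 ± 0.17, adjusted p = 0.0464). The count higher was 1 without CD301b replicate 3 or any SIRPa library, each of which cost the Jak2 call. The count lower was 0 without CD301b replicate 1 or 4, any SIRPa library or XCR1 replicate 1. Against XCR1, 7 were higher and 1 lower in CD301b (13.5% and 9.12% of all genes), and 8 higher and 1 lower in SIRPa (13.9% and 10.7% of all genes). The lower one was Tyk2 in both, a call lost without CD301b replicate 3 or 4 or XCR1 replicate 1 or 2 for CD301b (adjusted p 0.050 to 0.177) and without SIRPa replicate 2 or 3 or XCR1 replicate 1 for SIRPa (0.0534 to 0.118). The median log2 fold changes of the list were 0.03, 0.94 and 0.57 in the 3 comparisons. Stat6 stood at 164, 148 and 147 CPM in CD301b, SIRPa and XCR1 and passed no comparison. Of the exonic bases of Il4ra, 571 of 6002 lie opposite another annotated gene, and whether the counting used strand is not stated in the sources used here.

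Of 22 genes known as targets of interleukin-4 or interleukin-13, the 2 ligands among them, 21 were tested. Between CD301b and SIRPa, 6 were higher in CD301b, 2 were lower (Tgm2 and Fcer2a) and 13, Ccl22 among them, did not pass, beside 2.20% of all genes higher and 2.08% lower. Fcer2a summed to 2 counts in CD301b and 223 in SIRPa, so it was tested only because of its SIRPa counts and lay at the floor in CD301b. The higher ones included Mgl2, which encodes the sort marker itself, the adhesion gene Cdh1, at 297 CPM in CD301b and 92.9 CPM in SIRPa, the VEGF receptor gene Flt1 and Ccl17. With 1 library left out, the count higher was 4 to 8. No lower call was left when either CD301b replicate 1 or SIRPa replicate 1 was dropped, a count of 0, and 1 was left when CD301b replicate 3, CD301b replicate 4 or SIRPa replicate 3 was dropped. Against XCR1, 16 were higher and 1 lower (Batf3) in CD301b and likewise 16 and 1 in SIRPa, the Batf3 call for SIRPa being lost without SIRPa replicate 1 or XCR1 replicate 1 (adjusted p 0.0714 to 0.0751 by edgeR). Of all genes, 13.5% were higher and 9.12% lower in CD301b than XCR1, and 13.9% and 10.7% in SIRPa than XCR1. The median log2 fold changes were 0.58, 3.22 and 2.74.

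GM-CSF and TSLP also act on dendritic cells, through receptors encoded by Csf2rb and Crlf2 and through STAT5. Of 7 genes of these chains, edgeR called 0 between CD301b and SIRPa, where 4.28% of all genes passed. Before adjustment 4 had an edgeR p below 0.05, and the share of all genes below that was not counted. DESeq2 called 1 and limma-voom 0. Leaving out CD301b replicate 4 gave 1. Against XCR1, 4 were higher in CD301b (Crlf2, Il7r, Stat5a and Stat5b) and 6 in SIRPa, and none was lower, where 13.5% and 13.9% of all genes were higher. The count for SIRPa was 3 without SIRPa replicate 2 or 3.

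A list of 13 genes of transcription factors was chosen as reported to act at the CCR4 ligand genes, which was not tested here. Of these, 3 were higher in CD301b than SIRPa, none was lower and 10 did not pass, beside 2.20% of all genes higher and 2.08% lower. Irf4, which encodes a factor needed by type 2 dendritic cells, stood at 276, 256 and 224 CPM in CD301b, 160.2, 157 and 144 CPM in SIRPa and 8.18, 13.7 and 8.05 CPM in XCR1 libraries. These form 3 separate levels, as for Ccl17. Its log2 fold changes were 0.71 ± 0.15 for CD301b over SIRPa (adjusted p = 0.00853 by edgeR, but 0.0583 without SIRPa replicate 3) and 4.66 ± 0.18 for CD301b over XCR1 (2.28e-13). Klf4, whose factor is needed for some type 2 dendritic cells, averaged 163 ± 22.6, 74.2 ± 13.6 and 20.6 ± 4.77 CPM, with log2 fold changes of 1.13 ± 0.17 for CD301b over SIRPa (adjusted p = 2.84e-04 by edgeR) and 1.85 ± 0.18 for SIRPa over XCR1 (7.25e-08). The third was the AP-1 gene Fos (0.71 ± 0.18, adjusted p = 0.0483), a call lost in 6 of 9 fits that each left out a library. Those libraries were CD301b replicates 1 and 3, SIRPa replicates 1, 2 and 3 and XCR1 replicate 2 (adjusted p 0.0562 to 0.205). Against XCR1, 8 were higher and 1 lower in CD301b. The count of 8 fell to between 5 and 7 in the fits that each left out a library. It was 5 without CD301b replicate 1 or 3 or XCR1 replicate 3. In SIRPa 5 were higher and 1 lower than in XCR1. Of all genes, 13.5% were higher and 9.12% lower in CD301b than XCR1, and 13.9% and 10.7% in SIRPa than XCR1. The lower one was Ahr in both, at 76.5, 61.6 and 124 CPM in CD301b, SIRPa and XCR1.

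Ccl17 and Ccl22 are also known as genes of mature, activated dendritic cells. Of 24 such genes, the ligands included, 23 were tested. Ccl17 was the only one higher in CD301b than SIRPa, 7 were lower and 15, Ccl22 among them, did not pass, beside 2.20% of all genes higher and 2.08% lower. The lower ones included Ccl5, the calcium channel subunit gene Cacnb3 (118 CPM in CD301b and 209.9 CPM in SIRPa), Il15ra and Cd200. The count higher was 2 without CD301b replicate 4 or XCR1 replicate 3, and the count lower was 4 without SIRPa replicate 1. Against XCR1, 6 were higher and 7 lower in CD301b (13.5% and 9.12% of all genes), and 8 higher and 2 lower in SIRPa (13.9% and 10.7% of all genes). Ccl17 and Ccl22 were higher in both. Il12b, a subunit of interleukin-12, was lower in both, at 11.3, 18.2 and 146 CPM in CD301b, SIRPa and XCR1. Fscn1, which encodes an actin-bundling protein of mature dendritic cells, stood at 936, 1037 and 966 CPM and passed no comparison. The median log2 fold changes were -0.28, 0.01 and 0.10.

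Genes whose pattern was most like that of each ligand were sought by Pearson correlation of log2 CPM over the 9 libraries among 9479 genes with a mean of at least 5 CPM. The points share their sort, so the values are a description. For Ccl17 they were Fcrls (r = 0.988), Kif1a (0.982), Mgl2 (0.981), Sfxn3 (0.980) and Bcar3 (0.980). Fcrls, an Fc receptor-like gene, averaged 18.1 CPM in CD301b and 0.843 CPM in SIRPa and was at 0 in every XCR1 library, so it met the minimum through CD301b alone and its r rests on values at the floor in XCR1. For Ccl22 they were Cd14 (0.979), which encodes a co-receptor for lipopolysaccharide, Socs6 (0.978), Alpk2 (0.978), Snx18 (0.977) and Sh3bp2 (0.977). Cd14 averaged 25, 12.4 and 0.923 CPM in CD301b, SIRPa and XCR1, with 0, 41 and 17 counts in XCR1 replicates 1, 2 and 3. Alpk2 averaged 9.21, 6.15 and 1.31 CPM. Both genes met the minimum through CD301b and SIRPa, and their r rests on values near the floor in XCR1. The lists share no gene. They depend on the measure, since 0 of the 5 genes of either list were among those with the highest Spearman correlation. For Ccl17 their rho was 0.883 (Mgl2) to 0.967 (Sfxn3 and Bcar3), where the highest 5 began at 0.971, so some missed narrowly. For Ccl22 their rho was 0.750 (Sh3bp2) to 0.917 (Snx18), where the highest began at 0.983. With each other, the ligands had r = 0.884 (Spearman rho 0.917), which placed Ccl22 at rank 242 in the list of Ccl17 and Ccl17 at rank 497 in that of Ccl22.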

How the data were processed

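Dendritic cells were sorted from digested thymi and stranded total RNA libraries of their RNA were sequenced on a NextSeq instrument, per the labels' protocols. The submitters' processing notes name HISAT2 and featureCounts (Subread) among the tools, also FastQC, Trimmomatic, SAMtools and edgeR, with build mm10. The deposited table holds raw counts per gene symbol. The authors also deposited log2 CPM values, which for the 2 genes were 0.11 to 0.12 above those computed here, and it was used for that check only. Which annotation was counted, and whether by strand, is not stated in the sources used here.

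From the counts, 24 symbols that had been turned into dates were left out (0.125 to 0.187% of a library), genes were kept with filterByExpr (minimum count 10), and edgeR 4.0.16 in R 4.3.3 was run with TMM scaling and robust quasi-likelihood tests in 1 fit over 9 libraries. CPM were computed on TMM-scaled library sizes. Exon lengths are from GENCODE for GRCm38. No block was used, since the replicate numbers are not said to pair animals. The fit was tested on simulated data. Alternatives were RLE or no scaling, no filter, limma-voom (limma 3.58.1), DESeq2 1.42.0, fits of 2 populations, a replicate block and each library left out. The 2 genes were named in every comparison. Of the lists on the CCR4 pathway, the locus, the signalling chains and the factors any member could be named, of other lists up to 4 passing genes a direction by smallest adjusted p and the most abundant other one, and the 5 genes most like each ligand without a predicted-gene name. The 2 genes and all lists were chosen with earlier results of these data known, so no list is independent evidence.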

Additional observations from a re-analysis of the deposited data

How the results depend on the processing

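The 6 fold changes of Ccl17 and Ccl22 kept their direction and their side of the threshold in all 16 alternatives each. The Ccl17 log2 fold change was 1.72 to 1.91 for CD301b over SIRPa, 3.06 to 3.45 for CD301b over XCR1 and 1.27 to 1.65 for SIRPa over XCR1, and that of Ccl22 was 0.05 to 0.16, 0.53 to 0.73 and 0.42 to 0.63. The exact permutation p of their ratio is at 0.00357, the smallest value possible, also with counts added or 1 library left out, so it cannot show how stable the ratio is. The count of genes passing for CD301b and SIRPa was 660, and 328 to 813 with 1 library left out. It was 328 without SIRPa replicate 1, 418 without SIRPa replicate 3 and 438 without CD301b replicate 3. The cause was not tested. With unscaled library totals, 266 genes were higher and 391 lower in CD301b than SIRPa (40.5% higher), against 339 and 321 (51.4%) with TMM. Correlations of same-numbered libraries' deviations from their population means were 0.00305 to 0.0413, and 4 of 9 libraries correlated best with their own number. CD301b replicate 4 has no same-numbered partner, and means of 3 libraries leave few deviations. This check therefore cannot decide whether replicate numbers pair the libraries. With the replicate block Ccl17 gave 1.88, 3.33 and 1.44 and Ccl22 0.16, 0.69 and 0.52, and 660, 2913 and 4034 genes passed, against 660, 3487 and 3803 without it. With Spearman in place of Pearson correlation, 0 of the 5 genes most like Ccl17 and 0 of the 5 most like Ccl22 were shared. For some lists, counts without single libraries or by other tools, chosen after seeing the data, stand beside them. Other lists also differed by tool. Between CD301b and SIRPa, edgeR, DESeq2 and limma-voom called 8, 10 and 9 of the interleukin targets. They called 3, 4 and 4 of the transcription factors and 8, 10 and 9 of the mature dendritic cell genes. At these depths counting error is small for both ligands, but 3 libraries a population limit the tests.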
